A study of Mus musculus with 6 samples.

Results

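Fibroblast growth factors (FGFs), their receptors and the genes that answer to them were described in mouse embryonic hearts with a conditional knockout of Casz1. The set held 34 genes, listed by name for their known place in the pathway with earlier results of these data in view, and all 34 had 1 entry each among the 23290 entries of the expression table. There were 16 genes of the FGF family, 5 receptors, 9 feedback and target genes and 4 adaptors or modulators. Hearts were taken at E10.5 from mice of C57BL/6 background, and total RNA from each heart was sequenced. The 3 mutant hearts had the genotype Nkx2-5Cre/+,Casz1f/f, a conditional knockout in which both Casz1 alleles are floxed and Cre sits at 1 Nkx2-5 allele. The 3 control hearts had the genotype Nkx2-5+/+,Casz1f/+, with 1 floxed allele of Casz1 and no Cre, and the labels call them wild type. Cre from this locus is known to act in heart progenitors and in pharyngeal endoderm, so deletion is limited to such cells and their descendants. The Cre allele at Nkx2-5 differs between the genotypes as well as Casz1, and effects of the 2 loci cannot be told apart.

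Secreted FGFs bind receptor tyrosine kinases together with heparan sulphate, and the docking protein FRS2 passes the signal to the Ras-ERK cascade. ERK activity turns on its own inhibitors, among them the Sprouty proteins and the phosphatase DUSP6, and the ETS factors ETV4 and ETV5, so transcripts of these genes are often read as a measure of FGF signalling. In the embryonic heart, FGF8 and FGF10 are known from the second heart field, the progenitors that build the outflow tract and right ventricle. FGF9 and FGF16 are known as signals from epicardium and endocardium to the growing heart muscle.

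Expression was given as FPKM, fragments per kilobase of transcript scaled to library size, which allows levels to be compared between genes as well as between genotypes. The authors' deposited table holds 1 pooled FPKM value per genotype, so neither the depth of each library nor the values of single hearts are known here. All FPKM, p and q values below are the authors' own, from that table. Each log2 fold change, mutant over control, has a standard error (SE) taken from the authors' test statistic, and 95% intervals are built on it. A gene counts as called when its q, the p-value adjusted over all 15387 tested entries, is under 0.05. Casz1 itself stood at 4.68 FPKM in mutant and 6.61 FPKM in control hearts (log2 -0.50, SE 0.306), and Nkx2-5 at 82.9 FPKM in mutant and 143 FPKM in control hearts (log2 -0.79, SE 0.295). Neither was called, and the FPKM of Casz1 covers the whole gene, deleted and undeleted parts alike. Heart muscle markers were abundant in both genotypes, with the atrial light chain Myl7 at 7496 FPKM in mutant and 5080 FPKM in control hearts. Because RNA came from whole hearts, fewer cells of a type and less RNA per cell cannot be told apart.

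None of the FGF genes was called. Of the 34, 30 were tested and 0 had a q under 0.05 in the authors' deposited table, where 0.422% of all tested entries did. At an unadjusted p under 0.05, 2 of the 30 (6.67%) passed, against 3.17% of all tested entries. These were Fgf9, the 1 member lower in mutant hearts at this p (1.18% of all tested entries were lower), and Fgf15, the 1 member higher (1.99% of all tested entries were higher). At the share of all tested entries, a count of 2 among 30 genes says little about the set. The median log2 fold change of the 30 was 0.09, with 18 above and 12 below 0. Over all tested entries the median was -0.02, and 45.3% of those with a finite fold were above 0. The spread differed between the groups, which also differed in level. The median size of the log2 fold change, sign ignored, was 0.77 for the 13 tested genes of the FGF family, 0.16 for the 4 tested receptors, 0.12 for the 9 feedback and target genes and 0.10 for the 4 adaptors and modulators. Over all tested entries with at least 1 FPKM in either genotype it was 0.09. This baseline leaves out lower entries, while only 7 of the 13 tested FGF family genes reached that level. The median SE was 0.60 for these 13 genes and 0.33 for the 9 feedback and target genes. Spread by role was therefore not separated from level. Most of the FGF genes were also low: 9 of 16 were under 1 FPKM in both genotypes, as was 1 of the 18 other members.

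**Figure D1:**
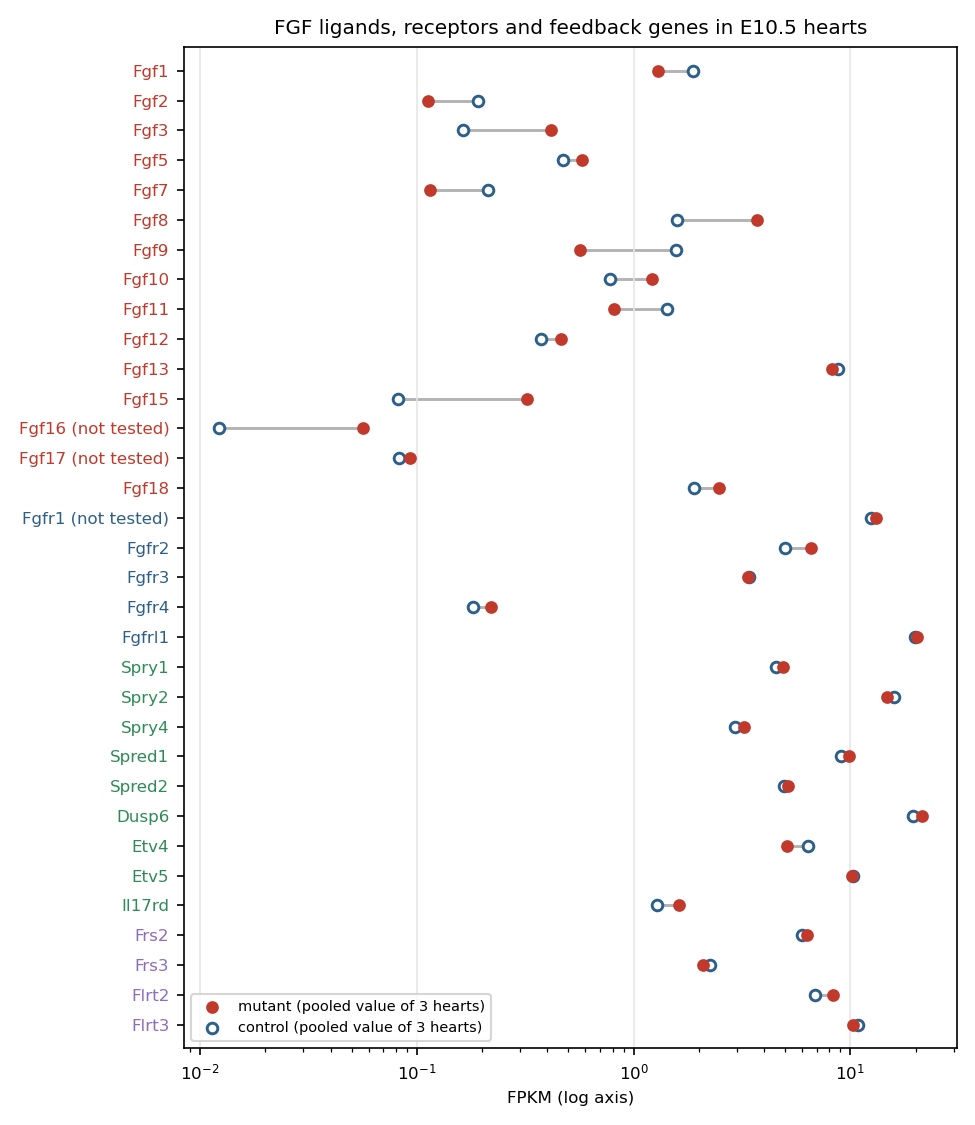
Level of each FGF member in FPKM on a log axis, with filled points for the pooled value of 3 mutant hearts and open points for that of 3 control hearts; name colours mark FGF genes (red), receptors (blue), feedback and target genes (green) and adaptors or modulators (purple). The pairs of points lie close together for receptors and feedback genes and apart for Fgf3, Fgf8, Fgf9, Fgf15 and the untested Fgf16, and Fgf20, listed at 0 in control hearts, is left out.

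Fgf8 and Fgf10, the ligands of the second heart field, had higher values in mutant hearts, with intervals that included 0, while of the epicardial and endocardial ligands Fgf9 was lower and Fgf16 was higher but too low to be tested. Fgf8, an early signal of second heart field and pharyngeal tissue (chromosome 19 from 45736798 to 45742884 in mm10), was at 3.70 FPKM in mutant and 1.58 FPKM in control hearts. That is 2.34-fold higher in mutant hearts (log2 1.22, SE 0.644, 95% interval -0.04 to 2.49), with p = 0.0574 and q = 1.00 in the authors' deposited table. The lower bound of this interval lies just under 0. Fgf10, the ligand that marks second heart field mesoderm (chromosome 13 from 118714699 to 118792573), was at 1.21 FPKM in mutant and 0.777 FPKM in control hearts. The log2 value was 0.64 (SE 0.428, 95% interval -0.19 to 1.48) at p = 0.132 in the authors' deposited table, so neither ligand passed even without adjustment.

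Fgf9, which drives growth of the ventricular wall (chromosome 14 from 58072686 to 58112720), was at 0.566 FPKM in mutant and 1.56 FPKM in control hearts. It was 2.76-fold lower in mutant hearts (log2 -1.46, SE 0.443, 95% interval -2.33 to -0.60). With p = 0.000938 it ranked 100th among the 15387 tested entries, and its q was 0.142 in the authors' deposited table. Its level was low, since 22.1% of tested entries had a lower mean FPKM, and with 1 FPKM added to both values the log2 fold change was -0.71. Fgf16, the other ligand of this kind, was at 0.0564 FPKM in mutant and 0.0122 FPKM in control hearts, which the authors' test left out as too low. Fgf20, of the same subfamily as Fgf9 and Fgf16, was at 0.0262 FPKM in mutant hearts and listed at 0 in control hearts, also untested. Fgf9 was therefore the only gene of its subfamily that was tested.

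Set beside each other, the amounts of Fgf8 and Fgf9 were about equal in control hearts and far apart in mutant hearts. The ratio of Fgf8 to Fgf9 FPKM was 6.54 in mutant and 1.01 in control hearts. Among the 13 secreted ligands of the set, Fgf8 was in position 1 by FPKM in mutant and 3 in control hearts, and Fgf9 in position 6 in mutant and 4 in control hearts. Fgf8 made up 33.7% of the summed FPKM of these ligands in mutant and 17.7% in control hearts, and Fgf9 5.15% in mutant and 17.5% in control hearts. The sum itself was 11.0 FPKM in mutant and 8.93 FPKM in control hearts. The difference between the fold changes of Fgf8 and Fgf9 was not tested, since both come from the same hearts and no value per heart is held here.

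**Figure D2:**
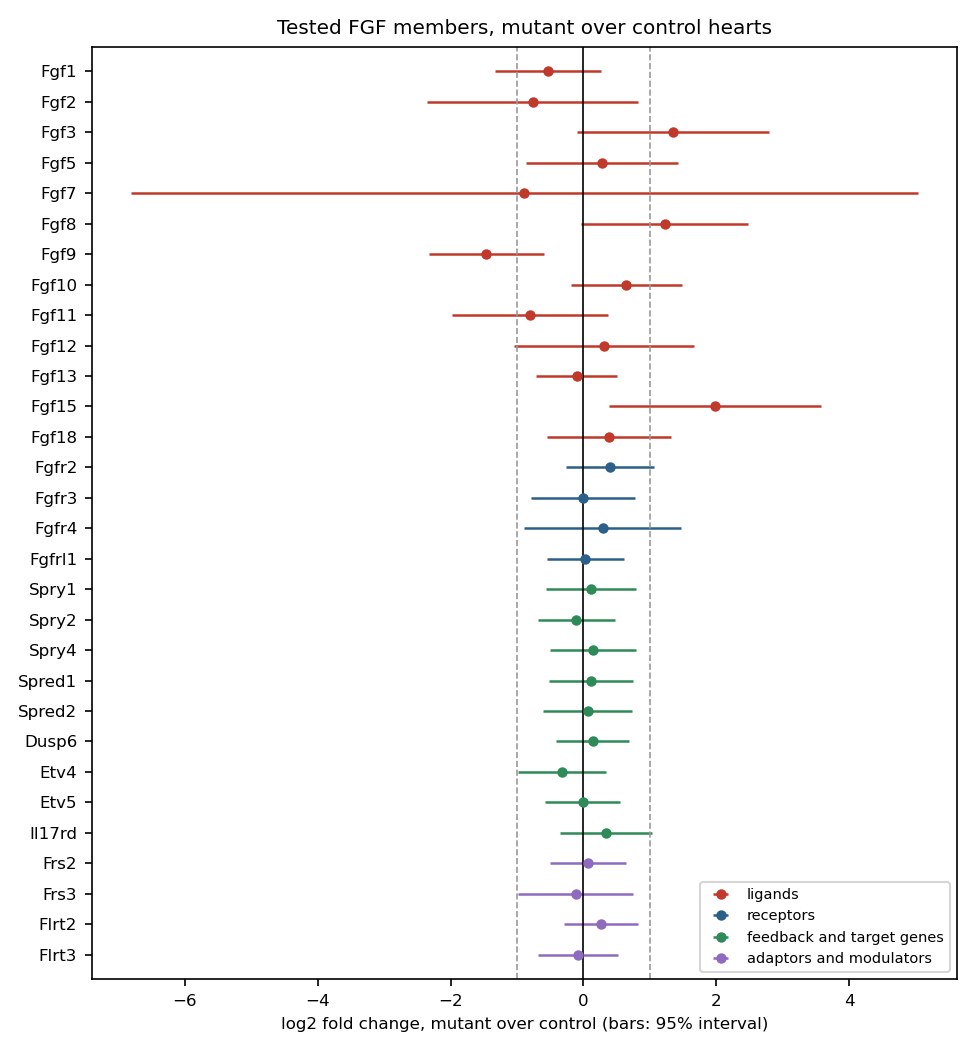
Log2 fold change, mutant over control, of the 30 tested FGF members with 95% intervals from the authors' test statistic; solid line at 0, dashed lines at 2-fold lower and higher. Only the intervals of Fgf9 (below 0) and Fgf15 (above 0) leave out 0, and that of Fgf7 runs from -6.81 to 5.03.

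Promoter sequence is shown for 3 ligands with log2 fold changes on both sides of 0, Fgf9 below it and Fgf10 and Fgf3 above it, because the ligands are the members with the widest spread. Each line gives the 250 bases before the RefSeq start in build GRCm38.p6, all on the plus strand. The windows are chr14:58072436-58072685 for Fgf9, chr13:118714449-118714698 for Fgf10 and chr7:144838362-144838611 for Fgf3. Capitals mark the GATA motif on either strand.
Fgf9: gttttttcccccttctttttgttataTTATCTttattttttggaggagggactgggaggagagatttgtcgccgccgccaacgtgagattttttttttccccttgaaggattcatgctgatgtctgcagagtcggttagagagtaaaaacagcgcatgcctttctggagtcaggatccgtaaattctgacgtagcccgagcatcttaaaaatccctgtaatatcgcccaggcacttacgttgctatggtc
Fgf10: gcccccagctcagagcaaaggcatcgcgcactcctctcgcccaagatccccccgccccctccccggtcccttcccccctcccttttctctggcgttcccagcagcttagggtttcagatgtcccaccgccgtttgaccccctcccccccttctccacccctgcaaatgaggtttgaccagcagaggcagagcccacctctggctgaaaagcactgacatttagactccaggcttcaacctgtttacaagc
Fgf3: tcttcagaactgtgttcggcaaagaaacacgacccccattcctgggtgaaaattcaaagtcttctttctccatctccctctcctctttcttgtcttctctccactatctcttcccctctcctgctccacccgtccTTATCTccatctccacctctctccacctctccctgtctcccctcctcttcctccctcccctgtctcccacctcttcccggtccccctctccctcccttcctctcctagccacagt

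Short motifs were looked for on both strands in these windows, for the 25 of 34 members that RefSeq promoters matched (33 windows). Fgf1, Fgf8, Fgf15, Fgf16, Fgf17, Fgf20, Fgfr1, Etv4 and Spry4 were not matched. The GATA motif AGATAA was in the windows of Fgf9 and Fgf3, as in 9.99% of all 32851 promoter windows. In Fgf9 it begins 224 bases before the start and in Fgf3 115 bases before it. The ETS motif CCGGAAGT was in the windows of Fgfrl1 and Frs2, against 2.88% of all windows, and in none of the matched feedback genes. The NKX2-5 motif CACTTNA and the TATAAA box were in 0 of the 33 windows, against 10.1% and 12.4% of all windows. GC content of the windows printed above was 44.8% for Fgf9, 61.2% for Fgf10 and 55.2% for Fgf3. These matches describe letters only.

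Fgf3 and Fgf15 lie close together on chromosome 7, with Fgf4 between them, inside 62.3 kb. Fgf3, a ligand of pharyngeal and ear epithelium, was at 0.415 FPKM in mutant and 0.163 FPKM in control hearts (log2 1.35, SE 0.739, 95% interval -0.10 to 2.80, p = 0.0684 in the authors' deposited table). Fgf15, the mouse counterpart of human FGF19 and needed for outflow tract alignment in mice, was at 0.323 FPKM in mutant and 0.0821 FPKM in control hearts. It was 3.94-fold higher in mutant hearts (log2 1.98, SE 0.813, 95% interval 0.38 to 3.57), with p = 0.0150 and q = 0.824 in the authors' deposited table. Both values are far below 1 FPKM: with 1 FPKM added the log2 fold changes were 0.29 for Fgf15 and 0.28 for Fgf3. Fgf4, an early embryonic ligand outside the set, was at 0.0728 FPKM in mutant hearts and listed at 0 in control hearts, and was not tested.

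The named genes on either side of this stretch had fold changes close to 0. Ccnd1, the G1 cyclin, stood at 52.7 FPKM in mutant and 57.2 FPKM in control hearts (log2 -0.12, SE 0.293). LTO1, which lies between Fgf15 and Ccnd1, had a log2 fold change of -0.06 (SE 0.314). On the other side, the chloride channel gene Ano1 was at 4.67 FPKM in mutant and 4.67 FPKM in control hearts, and the death receptor adaptor Fadd had a log2 fold change of -0.08. The 3 FGF genes of the stretch thus all had higher values in mutant hearts, at levels under 1 FPKM, and these 4 named neighbours stood at 4.67 FPKM or more with log2 values of -0.12 to 0. A further tested entry within 300 kb, for which no symbol was found, was as low as the FGF genes, at 0.260 FPKM in mutant and 0.325 FPKM in control hearts (log2 -0.32, SE 0.642).

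**Figure D3:**
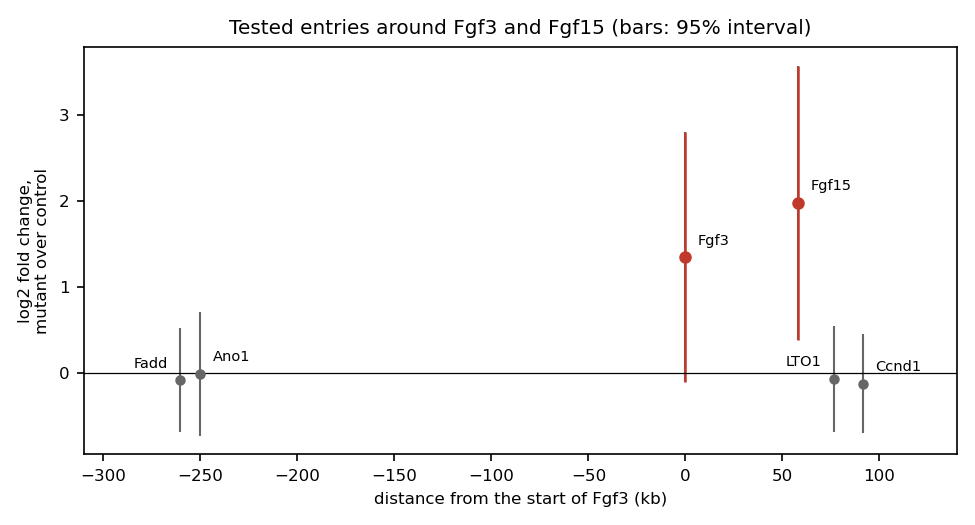
Log2 fold change, mutant over control, of named tested entries within 300 kb of the Fgf3 to Ccnd1 stretch, plotted by distance from the start of Fgf3 in kb, with 95% intervals. Fgf3 at 1.35 and Fgf15 at 1.98 (red) stand above their neighbours, which lie between -0.12 and 0.

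The other ligands gave intervals that included 0. Fgf18, of the FGF8 subfamily, was at 2.48 FPKM in mutant and 1.91 FPKM in control hearts (log2 0.38, SE 0.476), and its relative Fgf17 was at 0.0932 FPKM in mutant and 0.0824 FPKM in control hearts, too low for the authors' test. Fgf1, a ligand released without a signal peptide that binds all FGF receptors, was at 1.30 FPKM in mutant and 1.88 FPKM in control hearts (log2 -0.53, SE 0.406). Fgf2, known for its action on blood vessels, was at 0.112 FPKM in mutant and 0.191 FPKM in control hearts (log2 -0.77, SE 0.812). Fgf5, a regulator of hair growth, was at 0.576 FPKM in mutant and 0.473 FPKM in control hearts (log2 0.28, SE 0.584). Fgf7, a mesenchymal signal to epithelia, was at 0.115 FPKM in mutant and 0.213 FPKM in control hearts, with an SE of 3.02 that leaves its direction undetermined. The entry of Fgf7 overlaps those of Galk2 and Fam227b.

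Fgf11, Fgf12 and Fgf13 encode FGF homologous factors, which stay inside the cell and act on voltage-gated sodium channels rather than on FGF receptors. Fgf13 was the most abundant gene of the FGF family in both genotypes, at 8.19 FPKM in mutant and 8.79 FPKM in control hearts (log2 -0.10, SE 0.312). Its 95% interval of -0.71 to 0.51 lies within 2-fold in both directions, the only one among the 13 tested genes of the family to do so. Fgf11 was at 0.815 FPKM in mutant and 1.43 FPKM in control hearts (log2 -0.81, SE 0.598), and Fgf12 at 0.461 FPKM in mutant and 0.373 FPKM in control hearts (log2 0.31, SE 0.690).

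The receptors were close to each other in the 2 genotypes and kept one order of abundance. Fgfrl1, a receptor without a kinase domain, was highest at 20.2 FPKM in mutant and 19.8 FPKM in control hearts (log2 0.03, 95% interval -0.55 to 0.62). Fgfr1, the main receptor of mesoderm, followed at 13.1 FPKM in mutant and 12.4 FPKM in control hearts, but the authors' test failed for its entry and gave no p. Fgfr2 was at 6.61 FPKM in mutant and 5.01 FPKM in control hearts (log2 0.40, 95% interval -0.26 to 1.06, p = 0.236 in the authors' deposited table). Its isoforms, which differ in the ligands they bind, are summed in this value. Fgfr3 was at 3.38 FPKM in mutant and 3.40 FPKM in control hearts (log2 -0.01, 95% interval -0.79 to 0.78). Fgfr4, the lowest, was at 0.221 FPKM in mutant and 0.181 FPKM in control hearts (log2 0.29, 95% interval -0.89 to 1.47). Whether neighbours in this order differ beyond the spread of hearts cannot be read from pooled values.

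The adaptors and the FLRT membrane proteins, which bind FGF receptors, also lay near 0. Frs2, the docking protein of FGF receptors, was at 6.29 FPKM in mutant and 6.00 FPKM in control hearts (log2 0.07, SE 0.294). Its relative Frs3 was at 2.08 FPKM in mutant and 2.26 FPKM in control hearts (log2 -0.12, SE 0.443), and its entry overlaps an antisense gene, Frs3os. Flrt2, known from the epicardium, was at 8.28 FPKM in mutant and 6.88 FPKM in control hearts (log2 0.27, SE 0.286). Flrt3, known to promote FGF signalling, was at 10.3 FPKM in mutant and 10.9 FPKM in control hearts (log2 -0.08, SE 0.311). Its entry overlaps that of Macrod2. All 4 intervals lay within 2-fold in both directions.

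Transcripts of the feedback and target genes were present at moderate levels. None of the 9 tested had an unadjusted p under 0.05, where 3.17% of all tested entries did. At that share, a count of 0 among 9 genes says little about them. Dusp6, the phosphatase that switches off ERK (chromosome 10 from 99263231 to 99267489), was highest at 21.4 FPKM in mutant and 19.4 FPKM in control hearts. Its log2 fold change was 0.14 with a 95% interval of -0.41 to 0.69, so a change of 2-fold in either direction lies outside it. Etv4 and Etv5 are ETS factors that FGF signalling induces. Etv4 was at 5.11 FPKM in mutant and 6.40 FPKM in control hearts (log2 -0.32, 95% interval -0.99 to 0.34). Etv5 was at 10.2 FPKM in mutant and 10.3 FPKM in control hearts (log2 -0.01, 95% interval -0.58 to 0.55).

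The Sprouty genes encode inhibitors of receptor signalling to Ras. Spry2 was the most abundant, at 14.8 FPKM in mutant and 15.9 FPKM in control hearts (log2 -0.11, SE 0.294). Spry1 was at 4.91 FPKM in mutant and 4.56 FPKM in control hearts (log2 0.11, SE 0.346), and Spry4 at 3.23 FPKM in mutant and 2.92 FPKM in control hearts (log2 0.14, SE 0.327). The related Spred proteins act on Ras together with neurofibromin. Spred1 was at 9.86 FPKM in mutant and 9.09 FPKM in control hearts (log2 0.12, SE 0.324), and Spred2 at 5.17 FPKM in mutant and 4.94 FPKM in control hearts (log2 0.07, SE 0.342). Il17rd, the membrane inhibitor also called Sef, was at 1.62 FPKM in mutant and 1.28 FPKM in control hearts (log2 0.34, SE 0.355). Over the 9 genes the log2 fold changes ran from -0.32 to 0.34 with a median of 0.11, and 8 of the 9 intervals lay within 2-fold in both directions. The interval of Il17rd reached 1.03. The sum over the 9 was 76.2 FPKM in mutant and 74.8 FPKM in control hearts.

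**Figure D4:**
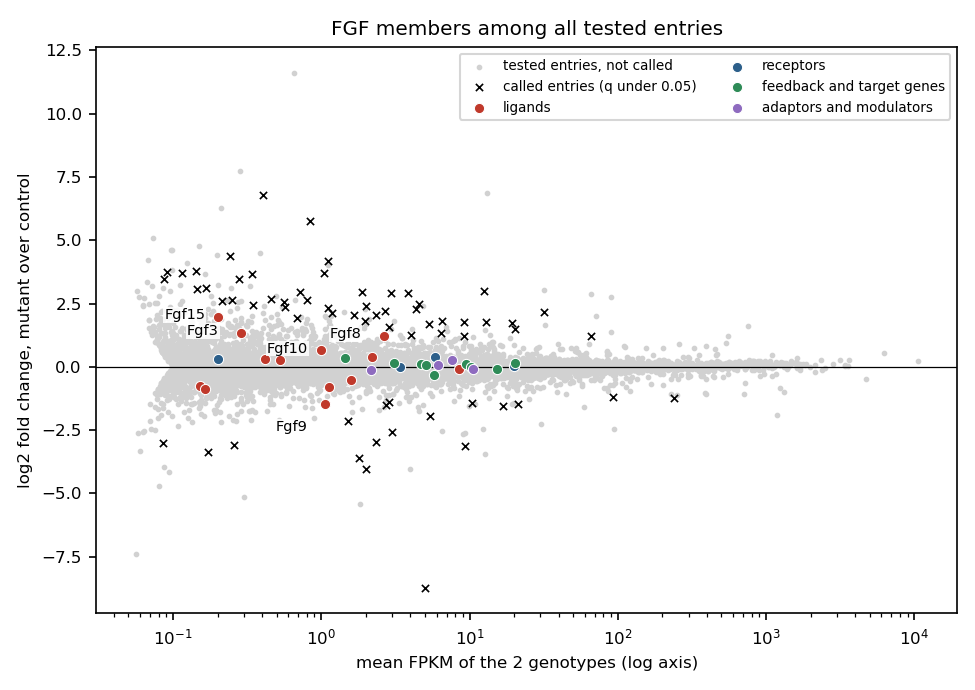
Log2 fold change, mutant over control, against mean FPKM of the genotypes (log axis) for tested entries whose fold is finite (grey), called entries (crosses) and FGF members coloured by role. Ligands spread from -1.46 to 1.98 at low FPKM, while receptors, feedback genes and adaptors lie near 0.

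Other genes of the pathway were examined as 4 lists. Of 6 further ligands 2 were tested and neither passed: Fgf23, a phosphate hormone, was at 0.271 FPKM in mutant and 0.253 FPKM in control hearts, and Fgf14 at 0.0918 FPKM in mutant and 0.104 FPKM in control hearts. Of 24 co-receptors and heparan sulphate genes 22 were tested and 0 called, while 1 (4.55%) passed at p under 0.05 before adjustment. Over all tested entries 0.422% were called and 3.17% passed at this p. The gene of this list that passed was Hs6st1, a sulphotransferase that modifies heparan sulphate chains. It was at 25.8 FPKM in mutant and 17.2 FPKM in control hearts (log2 0.59, SE 0.282, p = 0.0379 in the authors' deposited table). The median of this list was -0.02. Its most abundant members were the glypican Gpc3, at 240.7 FPKM in mutant and 216 FPKM in control hearts, and the sulphatase Sulf2, at 38.2 FPKM in mutant and 49.3 FPKM in control hearts.

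In the Ras-ERK relay all 22 genes were tested and 0 passed at p under 0.05 before adjustment, where 3.17% of all tested entries did. The list median was -0.02. All 22 intervals lay within 2-fold in both directions. The median SE was 0.317 over tested entries with at least 1 FPKM in either genotype. With such an SE the interval of any value near 0 lies within 2-fold. Map2k2, a kinase that activates ERK, was at 79.1 FPKM in mutant and 72.0 FPKM in control hearts. Of 22 other feedback and ERK target genes 21 were tested and 0 called, while 1 (4.76%) passed at p under 0.05 before adjustment. This was the immediate early gene Egr1, at 2.60 FPKM in mutant and 4.42 FPKM in control hearts (log2 -0.76, SE 0.366, p = 0.0371 in the authors' deposited table). The list median was 0.02, and Ccnd1 and Ier2, an immediate early gene at 36.3 FPKM in mutant and 33.8 FPKM in control hearts, were its most abundant members.

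Markers of pharyngeal tissue stood higher in the mutant pool, where the values of Fgf8, Fgf10, Fgf3 and Fgf15 were also higher. All 10 markers of pharyngeal and foregut epithelium had an unadjusted p under 0.05 and were higher, and 7 were called. Over all tested entries 3.17% had such a p in either direction and 0.422% were called. The marker lists were written with earlier results of these data known, so their counts are a description and not a test. Their median log2 fold change was 2.31, or 0.94 with 1 FPKM added to each value, and their summed level 21.6 FPKM in mutant and 4.16 FPKM in control hearts, with no marker at 0 in either genotype. The called genes were Epcam, Cdh1, Shh, Foxa1, Cldn6, Pax1 and Pax9. The tight junction gene Cldn6, the most abundant, was at 7.27 FPKM in mutant and 1.50 FPKM in control hearts. The adhesion gene Epcam was at 4.42 FPKM in mutant and 0.971 FPKM in control hearts (log2 2.19, q = 0.0148 in the authors' deposited table). Of 11 markers of second heart field and pharyngeal mesoderm 3 were called, Tbx1, Foxf1 and Six2, all higher, and 8 were higher at an unadjusted p under 0.05. Their median was 1.54, or 0.61 with 1 FPKM added, and their summed level 49.8 FPKM in mutant and 37.5 FPKM in control hearts, and the most abundant, Mef2c, had a log2 fold change of -0.07. The part of these tissues in the levels of the FGF ligands was not tested.

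Markers of endocardium and epicardium, from which FGF9 is known as a signal, had list medians of smaller size than those of pharyngeal tissue. Which cells held Fgf9 transcripts in these hearts cannot be read from whole-heart RNA. All 10 markers of endocardium and endothelium were below 0 with a median of -0.19. Of these, 0 passed at p under 0.05 before adjustment, where 3.17% of all tested entries did. The most abundant, Plvap, was at 74.4 FPKM in mutant and 85.7 FPKM in control hearts. Their summed level was 266 FPKM in mutant and 305 FPKM in control hearts. Of 9 epicardial markers 7 were below 0, with a median of -0.09, and 0 were called, against 0.422% of all tested entries. Their summed level was 196.7 FPKM in mutant and 194.7 FPKM in control hearts. The most abundant, Upk3b, was at 55.0 FPKM in mutant and 59.6 FPKM in control hearts. The epicardial marker with an unadjusted p under 0.05 was Msln, at 0.143 FPKM in mutant and 0.401 FPKM in control hearts (log2 -1.48, p = 0.0123 in the authors' deposited table). Fgf9 at a log2 fold change of -1.46 lay below every marker of the endocardial list, whose lowest was Kdr at -0.43, and above Msln but below the other 8 markers of the epicardial list. With 1 FPKM added to each value the order of Fgf9 and Msln reversed, at -0.71 for Fgf9 and -0.29 for Msln. The part of these cell types in the level of Fgf9 was not tested.

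**Figure D5:**
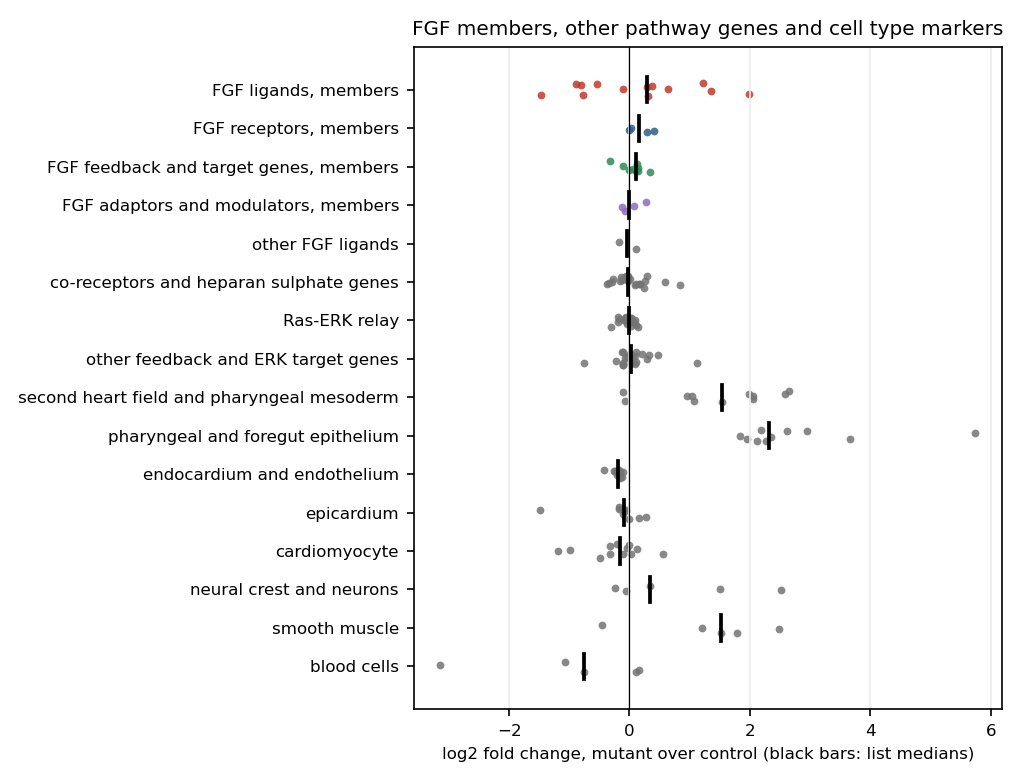
Log2 fold change, mutant over control, of each tested gene, by list; black bars are list medians. Feedback genes and the Ras-ERK relay have medians of 0.11 and -0.02, while the lists of pharyngeal epithelium and second heart field have medians of 2.31 and 1.54.

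Markers of other cells that the hearts could hold differed in places. For comparison, 0.422% of all tested entries were called. At an unadjusted p under 0.05, 1.18% of all tested entries were lower and 1.99% higher. Of 12 heart muscle markers 1 was called, Pln, lower, and 2 were lower at p under 0.05. The second was Nppa, at 888 FPKM in mutant and 1755 FPKM in control hearts (log2 -0.98, SE 0.392). The list median was -0.16, with a summed level of 24098 FPKM in mutant and 24668 FPKM in control hearts. Of 7 neural crest and neuronal markers 5 were tested and 0 called, with a median of 0.34 and 2 higher at p under 0.05. The most abundant, Tubb3, was at 17.3 FPKM in mutant and 13.7 FPKM in control hearts. Of 5 smooth muscle markers 2 were called, Actg2 and Lmod1, both higher, and 4 were higher at p under 0.05. Cnn1 went the other way, at 96.0 FPKM in mutant and 132 FPKM in control hearts (log2 -0.45, SE 0.557). The list median was 1.52. Tagln, the most abundant, was at 767 FPKM in mutant and 333 FPKM in control hearts. Of 7 blood cell markers 5 were tested and 1 called, Lyz2, lower. Pf4 was also lower at p under 0.05, at 28.8 FPKM in mutant and 60.5 FPKM in control hearts. The list median was -0.76, or -0.08 with 1 FPKM added to each value. Alas2, the most abundant of those tested, was at 141 FPKM in mutant and 126 FPKM in control hearts. The part of these cells in the FGF values was not tested.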

How the data were processed

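Hearts of 3 mutant and 3 control embryos were compared. The submitters' processing notes name Cuffdiff, Cufflinks 2.1.1, TopHat2 2.0.8, the build mm10, and also SAMtools 0.1.19.0 beside Bowtie2 2.1.0.0. FPKM values were computed by the authors and deposited as 1 pooled value per genotype, per the file headers. The log2 fold change and test statistic (columns treated as a score, since infinite folds are stored as a placeholder) stand beside them, as do p-values and q-values, all deposited by the authors. How libraries were normalised, whether counting used strand and the depth per heart are not given in the sources used here. The table tests 15387 entries, marks 7742 as too low, leaves out 65 with too many fragments and gives 96 a failed test. FPKM, p and q from it are copied as they stand.

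RefSeq identifiers were matched to symbols through a RefSeq table of GRCm38.p6, which named 22999 entries (98.8%). Coordinates are printed counting from 1. A normal tail of the test statistic, taken on both sides, gave the deposited p within 2.8e-06, so the SE of a fold change was taken as its size over that of the statistic. Among tested entries with at least 1 FPKM the statistic had a robust SD of 0.360, against 1 for a standard normal. Benjamini-Hochberg adjustment of p over all tested entries gave the deposited q within 1.9e-05. Both calculations were run on simulated data. There the statistic was built from the planted SE by the same formula, so this checks the code and not the SE itself. The labels describe separate embryos, and p-values rest on 3 hearts per genotype. Members and lists were chosen with earlier results of these data known. Named genes are all members, Casz1 and Nkx2-5, pathway genes with an unadjusted p under 0.05, the most abundant genes of each list, and called markers. Added after their values were seen were Fgf4, Fgf14 and Fgf23, neighbours of Fgf3 and Fgf15, and the markers Kdr, Msln, Cnn1, Nppa and Pf4. A further abundant gene of the pathway lists is not reported here. Alternatives were the q and p thresholds, filters at 1 FPKM, pseudocounts of 0.1 and 1 FPKM, and centring. The software was pandas 2.3.3, scipy 1.17.1 and numpy 2.4.6 under Python 3.11.15, and matplotlib 3.10.9 for figures.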

Additional observations from a re-analysis of the deposited data

How the results depend on the processing

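No FGF member was called with q under 0.1, with the adjustment over entries of at least 1 FPKM in either genotype or over those of at least 1 FPKM in both. Fgf9 had an adjusted p of 0.182 over the entries with that level in either genotype, against 0.142 as deposited, and was not among those with it in both. The count of members with an unadjusted p under 0.05, 2 as reported, was 1 at p under 0.01 and 1 among members that reached 1 FPKM in either genotype, where Fgf15 drops out for its low level. The share of all tested entries under these alternative thresholds and filters was not computed. These counts therefore cannot be set against a background. The median log2 fold change of the members lay between 0.06 and 0.11 with pseudocounts of 0.1 and 1 FPKM, centring and the filter at 1 FPKM, and 20 of 30 members were above 0 after centring, against 18 as reported. With a pseudocount of 1 FPKM the fold changes of 3 members moved by more than their SE, to 0.29 for Fgf15, 0.28 for Fgf3 and -0.71 for Fgf9, and the other 27 moved by less. With that pseudocount, an alternative chosen after seeing the data for these lists, the median was 0.94 for pharyngeal and foregut epithelium, 0.61 for second heart field and -0.08 for blood cells. No member had several entries, so summing entries could not change a value. Leaving out a replicate was not run, since values are pooled by genotype. No paired analysis was possible because the table holds no value per heart. Depth is unknown, so counting error cannot be separated from spread between hearts.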
